A study of Mus musculus with 8 samples.

Results

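The loci described here are those of 10 imprinted genes, H19, Igf2, Kcnq1ot1, Peg3, Usp29, Snrpn, Meg3, Peg10, Plagl1 and Igf2r. They were chosen by name, with no threshold on a score. The compartment score was read in the 100-kb bins of mm10 that overlap each gene body, 15 bins in all, and in the bins within 500 kb on each side, which gave 90 bins with the gene bodies. The whole data set holds 23972 autosomal bins scored in all 8 libraries. Every one of the 90 bins was among them.

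The scores come from Hi-C, an assay that crosslinks nuclei, cuts the chromatin and ligates the ends that lie close together, in mouse embryonic stem cells (mESCs). There were 8 groups, each with 1 deposited score file, which is called a library below. The Hi-C itself was repeated for every group, and none of the sources ties a file to a single repeat or to repeats combined. Cells of the line #33-6, which carries a conditional Setdb1 allele, were untreated (Setdb1 WT), given UNC0642 (Setdb1 WT + UNC), given 4-hydroxytamoxifen, 4-OHT (Setdb1 KO), or given both (Setdb1 KO + UNC). Cells of the wild-type line ADF1-26 were untreated (Suv39h WT) or given UNC0642 (Suv39h WT + UNC). The line ADF157, which lacks Suv39h1 and Suv39h2, was likewise untreated (Suv39h DKO) or given the inhibitor (Suv39h DKO + UNC). UNC0642, which blocks the H3K9 methyltransferases G9a and GLP, was used at 2 µM for 3 days. The 4-OHT dose was 800 nM, over 5 days when given alone and over 2 days when UNC0642 followed it. ADF1-26 and ADF157 are separate lines, so genotype and clone cannot be told apart. Only the Setdb1 knockout cells had 4-OHT, so loss of SETDB1 and exposure to 4-OHT cannot be told apart either. SETDB1 and SUV39H1/2 are the other H3K9 methyltransferases of the study. The score of a gene's bin measures its compartment and not its expression, so it does not check the knockouts.

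At an imprinted gene, 1 parental allele is silenced by a mark set in the germ line. DNA methylation of an imprinting control region is the main such mark, and the methylated allele also carries H3K9me3. In embryonic stem cells ZFP57 binds the methylated control regions and brings TRIM28 and SETDB1, and loss of these proteins is known to weaken imprints. At H19 and Igf2 the control region binds CTCF on the unmethylated allele, whereas Kcnq1ot1 and Airn are long non-coding RNAs transcribed from 1 allele across the domain they silence. The Hi-C maps were not split by allele, so the scores below do not tell the parental copies apart. Which copies were silent in these cells was not measured.

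Of the 10 genes, 6 lie on chromosome 7. Peg3 (chr7:6703892-6730431, minus strand), which encodes a zinc-finger protein, and Usp29 (chr7:6730578-6967219, plus strand), a ubiquitin-specific protease gene, run in opposite directions from starts 146 bp apart and share 1 bin. Snrpn (chr7:59982495-60140219, minus strand) encodes a splicing protein and lies in the Prader-Willi and Angelman domain. H19 (chr7:142575529-142578143, minus strand), a non-coding RNA, and Igf2 (chr7:142650766-142666816, minus strand), a growth factor gene, are 72.6 kb apart. Kcnq1ot1 (chr7:143203458-143296549, minus strand) runs antisense to the potassium channel gene Kcnq1. The end of Kcnq1ot1 lies 537 kb beyond Igf2, so the windows of these 3 genes overlap. Peg10 (chr6:4747306-4760517, plus strand) and the non-coding Meg3 (chr12:109541001-109571726, plus strand) are single-bin genes, the first derived from a retrotransposon. The transcription factor gene Plagl1 (chr10:13060504-13131694, plus strand) and Igf2r (chr17:12682406-12769664, minus strand), the receptor that clears IGF2, cover 2 bins each. Usp29 and Snrpn cover 3 bins each.

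Sequence upstream of the genes was searched for the ZFP57 hexamer TGCCGC and for the CTCF core GGNGGCAG, on both strands, because these proteins read the imprint. The 5 kb upstream of H19 held 6 CTCF cores, as many as or more than which were found upstream of 3.67% of the 28929 coding, lincRNA and antisense gene starts searched. Igf2 had 6 as well, Igf2r 2, Usp29, Meg3 and Plagl1 1 each and the other 4 loci none, beside 79.0% of gene starts with at least 1. Those of H19, whose upstream region holds the control region shared with Igf2, are shown 5′ to 3′ on the strand of H19, with the core in capitals.
H19, 3.898 kb upstream, chr7:142582023-142582052: agttgccgcgtGGTGGCAGcaaaatcgatt
H19, 3.773 kb upstream, chr7:142581898-142581927: aatgccactagGGGGGCAGgacacatgcat
H19, 3.654 kb upstream, chr7:142581779-142581808: ggttgccgcacGGCGGCAGtgaagtctcgt
H19, 2.628 kb upstream, chr7:142580753-142580782: tgctaccgcgcGGTGGCAGcatactcctat
H19, 2.173 kb upstream, chr7:142580298-142580327: cgatgccgcgtGGTGGCAGtacaatactac
H19, 1.305 kb upstream, chr7:142579430-142579459: acagagaccaaCTGCCACCacaccagtgaa
The core ran in 1 direction in 5 of the 6, and the hexamer stood in front of it in 3 of those. In all, 6 hexamers lay in the same 5 kb, a number reached by 0.197% of gene starts.

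Upstream of Usp29, over the first part of Peg3, 8 hexamers were found, a number reached by 0.0588% of gene starts. They are shown on the strand of Usp29, with the hexamer or its reverse complement in capitals.
Usp29, 2.055 kb upstream, chr7:6728511-6728540: tgacccgcctctTGCCGCaaacacatccag
Usp29, 1.292 kb upstream, chr7:6729274-6729303: ggcagcattcgtGCGGCAaactaagactga
Usp29, 1.117 kb upstream, chr7:6729449-6729478: agcggcgcctgcGCGGCAaatccgcggtca
Usp29, 0.896 kb upstream, chr7:6729670-6729699: cccaccgccactGCGGCAaaacaagacccg
Usp29, 0.865 kb upstream, chr7:6729701-6729730: ccccaagaacagTGCCGCgcttagcggtag
Usp29, 0.516 kb upstream, chr7:6730050-6730079: aatggcatccctGCGGCAacacggccgctc
Usp29, 0.426 kb upstream, chr7:6730140-6730169: cgtgatatggtcTGCCGCccctggcccgcg
Usp29, 0.411 kb upstream, chr7:6730155-6730184: cgcccctggcccGCGGCAacgcaccccaaa
The last 2 matches overlap in the stretches shown. Upstream of the other loci, Meg3, Igf2, Peg10 and Igf2r had 1 hexamer each and Peg3, Snrpn, Kcnq1ot1 and Plagl1 had none, beside 37.8% of gene starts with at least 1. The match at Meg3 lay 0.195 kb upstream of its start.
Meg3, 0.195 kb upstream, chr12:109540794-109540823: gccaggggcactGCGGCAgatttttttttc
In the 300-base RefSeq promoters (GRCm38.p6), which held 15 promoters of 8 of the 10 genes, the hexamer was found in 4, from Igf2, Meg3, Plagl1 and Snrpn, beside 11.6% of all 32851 promoters. H19 and Peg10 had no entry there. These are matches of letters and no evidence of binding. The stretches searched follow annotated gene starts and were not set to cover the control regions. A locus with none upstream can hold the hexamer elsewhere, as in the matched promoters of Snrpn and Plagl1, which lie inside these genes.

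**Figure D1:**
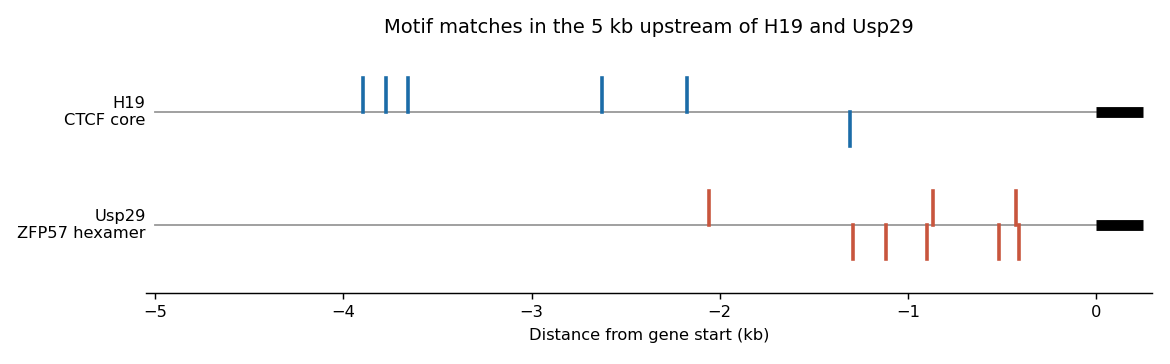
Motif matches in the 5 kb upstream of H19 (blue, CTCF core) and Usp29 (red, ZFP57 hexamer), against distance from the gene start in kb. Ticks above the line are matches as written and ticks below are reverse complements, and the black bar marks the gene start. The 6 cores at H19 lie 1.305 to 3.898 kb upstream and the 8 hexamers at Usp29 lie 0.411 to 2.055 kb upstream.

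A positive score places a bin in the A compartment, the active part of the nucleus, and a negative score in the B compartment. Of the 10 loci, 9 were in A in all 8 libraries. Snrpn was in B in all 8. Over all protein-coding genes 70.8% were in A in every library, 21.2% in B in every library and 8.03% changed sign between libraries. The count of 9 depends on how the scores are centred, and was 6 with the implied chromosome mean subtracted once more. None of the 15 gene bins changed sign between libraries, although 3127 of all 23972 bins did. In the flanks 42 of 75 bins were in A in every library, 17 in B and 16 changed sign.

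The scores are set separately for each chromosome, so levels of different genes are compared after division by the root mean square score of the gene's chromosome, or as a percentile among the bins of that chromosome. H19 had the highest divided score, 0.931 ± 0.0679 (SD, n = 8 libraries), and lay at a median percentile of 76.3. Igf2 followed at 0.864 ± 0.109. Kcnq1ot1 stood at 0.642 ± 0.0761 and Peg10 at 0.639 ± 0.179. Igf2r, at 0.452 ± 0.115, Meg3, at 0.436 ± 0.170, and Peg3, at 0.420 ± 0.116, came next. Plagl1 and Usp29 had the lowest positive values, 0.327 ± 0.114 and 0.303 ± 0.0691. Each of these 9 overlapped its neighbour in the order over the 8 libraries. Loci further apart did not always overlap, and the lowest value of H19, 0.823, was above the highest of Kcnq1ot1, 0.795, and of Meg3, 0.672. Snrpn, at -0.897 ± 0.0958 and a median percentile of 21.3, overlapped no other locus. The SD describes the spread over 8 different groups and is no replicate error.

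**Figure D2:**
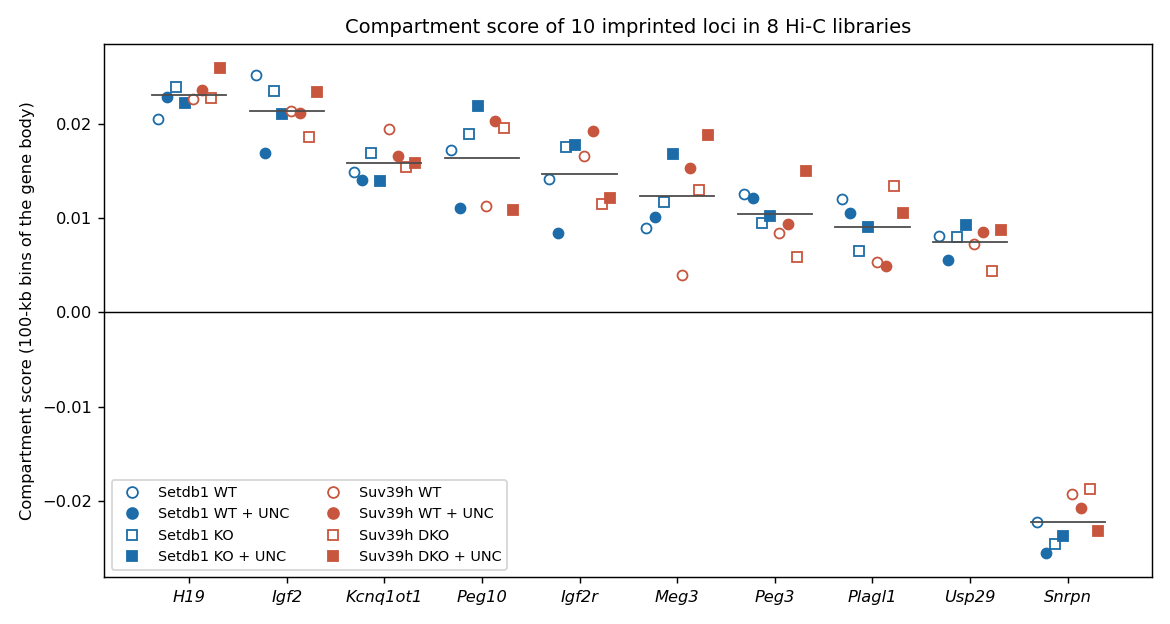
Compartment score (mean of the gene-body bins, no unit) of the 10 loci in each library. Blue marks the Setdb1 line and red the Suv39h lines, squares the knockouts and filled symbols UNC0642, and the horizontal bar is the mean of the 8. Only Snrpn lies under 0, at -0.0255 to -0.0187.

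H19 was among the bins with the least spread. In the Setdb1 line the untreated cells had 0.0205 and the UNC0642-treated ones 0.0228, and the knockout had 0.0239 untreated and 0.0222 treated. In the Suv39h lines the wild type had 0.0226 untreated and 0.0236 treated, and the double knockout 0.0228 and 0.0259. The SD of these 8 values, 0.00155, was larger than that of 2.82% of all bins. The bin of Kcnq1ot1 had an SD of 0.00182, and the median SD over all bins was 0.00357. Of the 15 gene bins 6 were above that median, those of Meg3 (0.00475) and Peg10 (0.00460), the start bin of Igf2r (0.00495), both bins of Plagl1 (0.00386 and 0.00373) and the end bin of Snrpn (0.00562). Their libraries differed as described under each comparison.

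Around H19, Igf2 and Kcnq1ot1 every bin of the windows was in A in every library. The level was not even. The bins next to Igf2, which hold part of Ins2, an insulin gene, and of Th, the tyrosine hydroxylase gene, averaged 0.0108 and 0.0110, against 0.0214 at Igf2 on one side and 0.0234 at Th and Ascl2 on the other. Kcnq1ot1 itself sat in a second dip. Its bin was lower than the mean of its flanks in 8 of 8 libraries, with a difference of -0.00785 ± 0.00204 (SD). Beyond it, the bin of Phlda2 and Nap1l4, 2 genes near the edge of the domain, averaged 0.0336. GC content followed the dips, at 42.6% and 42.4% in the Ins2 and Th bins and 40.7% in the Kcnq1ot1 bin, beside 49.1% at Igf2, 51.1% at H19 and 47.9% at Phlda2. Its part in the scores was not tested. Over all bins Pearson's r of GC content with the mean score was 0.770, a description across bins of the same libraries.

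Peg3 and Usp29 lay in a stretch of low positive scores. The Peg3 bin averaged 0.0104, and the next bins along Usp29 averaged 0.00355 and 0.00853. Upstream in the chromosome, bins of zinc-finger genes such as Zfp667 averaged 0.0234 and 0.0208, and a bin of olfactory receptor genes averaged 0.00101. On the far side of Usp29 the vomeronasal receptor gene Vmn2r32 lay in a bin at -0.0321. Usp29 scored above the mean of its flanks in 8 of 8 libraries, by 0.00640 ± 0.00165, and Peg3 in 7 of 8, by 0.00278 ± 0.00339.

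The Snrpn window was in B throughout, all 13 bins in all 8 libraries. Scores were least negative at the gene, at -0.0205 to -0.0244 as bin means, and the gene exceeded its flanks in 8 of 8 libraries, by 0.0133 ± 0.00268. On the side from which Snrpn is transcribed the bins averaged -0.0276. Downstream they averaged -0.0435 and reached -0.0546. These 5 downstream bins hold 179 annotated snoRNA genes, between 19 and 50 each, in arrays that belong to the long Snrpn transcript. Between 54.4% and 97.6% of their bases are soft-masked repeats, beside a median of 31.7% over all bins, and 1 of them has 114 GATC sites, the sites cut in this assay, beside a median of 246. Repeats hold reads that map to several places, and the part of mapping in these scores was not tested. The genes beyond the window kept the sign of Snrpn. Ndn and Magel2, imprinted genes silenced on the maternal copy, shared a bin at -0.0177 ± 0.00324, Mkrn3 and Peg12 shared one at -0.0145 ± 0.00363, and Ube3a, the ubiquitin ligase gene silenced on the paternal copy in neurons, averaged -0.0138 ± 0.00379.

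At the other 4 loci the score crossed or neared 0 within the window. Meg3 scored 0.0123, and Dlk1, the growth regulator expressed from the other allele, scored 0.0162 in the bin before it. A bin with no coding gene 300 kb before Meg3 averaged -0.00496, and the bin of the snoRNA host gene Rian, just after it, averaged 0.00249. Peg10 scored 0.0164, with bins 400 to 500 kb before it at -0.0115 and -0.00815 and the neighbour Ppp1r9a, a gene for an actin-binding protein, at up to 0.0293 after it. At Plagl1 the score stepped down along the chromosome from 0.0242 at Stx11 through 0.0132 and 0.00488 in the gene to 0.000525 at Phactr2. Igf2r had 0.00711 in the bin of its end and 0.0222 in the bin of its start. The bin of Tcp1, Wtap and their neighbours, 200 kb upstream, reached 0.0418, and the bins at Unc93a and Smok2a beyond it had -0.0162 and -0.0146.

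**Figure D3:**
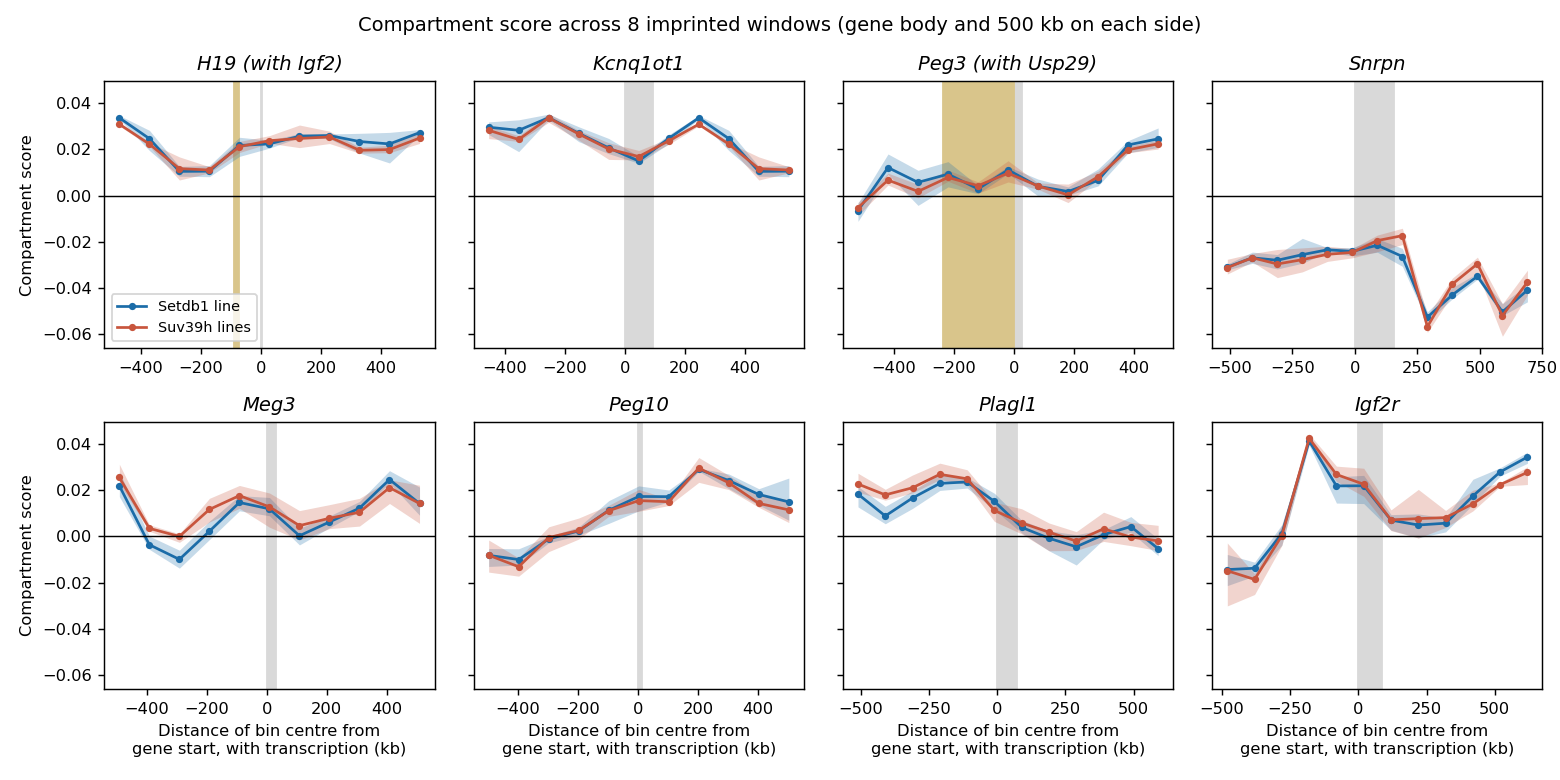
Compartment score in 100-kb bins against the distance of the bin centre from the gene start in kb, positive in the direction of transcription. Lines are means and bands the lowest to highest of the 4 Setdb1-line libraries (blue) and the 4 Suv39h-line libraries (red), grey marks the named gene and ochre Igf2 or Usp29. Snrpn is in B across its window and deepest downstream, and all bins around H19 and Kcnq1ot1 are in A.

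The first comparison, called SETDB1 loss, sets the Setdb1 knockout against the wild type of the same line. It joins libraries with 4-OHT for 5 days and for 2 days before UNC0642, and no wild-type library had 4-OHT. Each difference below is a fitted one, from a linear model over all 8 libraries (limma) with 1 level for each of the 4 genetic backgrounds and a term for UNC0642, and a bin was called at an adjusted p under 0.05 over all 23972 bins. SETDB1 loss called 0 of the 15 gene bins and 0 of the 75 flank bins, and 0% of all bins. At an unadjusted p under 0.05, 1 of 15 and 9.10% of all bins passed. The median fitted difference of the gene bins was 0.00139, beside -0.000293 over all bins. The median was 0.00313 without Setdb1 WT, 0.00149 without Setdb1 WT + UNC, 0.00128 without Setdb1 KO and 0.00238 without Setdb1 KO + UNC. Setdb1 WT + UNC stands apart, which touches every value of SETDB1 loss, UNC0642 and the lines that uses it. The study made repeats of this group as well, whose separate scores were not analysed here, so the label was not tested. The differences of the loci named next are therefore given with and without this library. It correlated with the rest of the Setdb1 line at a median r of 0.972 across bins, lower than with the Suv39h lines (0.976), while the other 3 libraries of the line had 0.988 to 0.989 with their own.

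Igf2r had the largest value for SETDB1 loss. In its start bin, chr17:12700001-12800000, the wild type of this line scored 0.0213 untreated and 0.0142 with UNC0642, and the knockout 0.0257 and 0.0264. Setdb1 WT + UNC was the lowest of the 8 libraries in this bin. The fitted difference was 0.00827 ± 0.00354 (SE; limma adjusted p = 0.531). Without Setdb1 WT + UNC it was 0.00256 ± 0.00361, and without Setdb1 WT it was 0.0140 ± 0.00361 (adjusted p = 0.0963). Airn, the non-coding RNA that starts inside Igf2r, covers this bin and the next. Its means over the 4 libraries, 0.0228, 0.0143, 0.0243 and 0.0261, hold the same scores in part and are no separate support.

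Peg10 scored 0.0172 in the wild type and 0.0111 in the wild type under UNC0642, against 0.0190 and 0.0219 in the Setdb1 knockout. The fitted difference of 0.00628 ± 0.00405 did not pass (adjusted p = 0.701), and on leaving out single libraries it lay between 0.00268, without Setdb1 WT + UNC, and 0.00989, without Setdb1 WT. The third bin of Usp29, at the far end of the gene, which also holds Zfp264, scored 0.00839, 0.00374, 0.0102 and 0.0146 in the same order of libraries. Its fitted difference was 0.00638 ± 0.00300 (adjusted p = 0.569), and 0.00268 ± 0.00341 without Setdb1 WT + UNC. At Meg3 the difference was 0.00477 ± 0.00303 (adjusted p = 0.693), and 0.00166 ± 0.00360 without that library. At the second bin of Plagl1 it was -0.00454 ± 0.00285 (adjusted p = 0.687), and -0.00337 ± 0.00365 without it. Peg3 had -0.00248 ± 0.00308 (adjusted p = 0.883), and -0.00451 ± 0.00388 without it. H19, Igf2, Kcnq1ot1 and Snrpn had opposite signs with and without UNC0642, and so did the mean over Usp29.

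The second comparison is the loss of SUV39H1/2, Suv39h DKO against Suv39h WT. It called 0 of 15 gene bins, 0 of 75 flank bins and 0% of all bins, while 2 of 15 and 9.60% of all bins passed unadjusted. Plagl1 had the largest value. In its second bin, chr10:13100001-13200000, the wild type scored 0.00107 untreated and 0.00329 with UNC0642, and the double knockout 0.0120 and 0.00706. The fitted difference in this bin was 0.00733 ± 0.00285 (adjusted p = 0.459). On leaving out single libraries it lay between 0.0042, without Suv39h DKO, and 0.0105, without Suv39h DKO + UNC. In the first bin, which holds the gene start, it was 0.00643 ± 0.00300 (adjusted p = 0.529). Igf2r went the other way in both bins, by -0.00609 ± 0.00264 (adjusted p = 0.502) and -0.00608 ± 0.00354 (adjusted p = 0.615). In its start bin the scores were 0.0217 and 0.0295 in wild type without and with UNC0642, and 0.0173 and 0.0217 in the knockout. Without Suv39h WT + UNC, the highest of the 8 libraries there, the difference in this bin was -0.00186 ± 0.00436, and without Suv39h WT it was -0.0103 ± 0.00436 (adjusted p = 0.801).

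Meg3 differed by 0.00623 ± 0.00303 (adjusted p = 0.544), with wild-type scores of 0.00398 and, under UNC0642, 0.0154, and knockout scores of 0.0130 and 0.0188. The groups overlapped there, and without Suv39h WT, the lowest of the 8 libraries, the difference was 0.00255 ± 0.00377, against 0.00992 ± 0.00377 without Suv39h WT + UNC (adjusted p = 0.633). Peg10 changed order with the inhibitor, at 0.0112 untreated and 0.0203 treated in the wild type against 0.0196 and 0.0109 in the knockout. Its single differences for the knockout were 0.00831 without UNC0642 and -0.00945 with it, and the fitted difference was -0.000568 ± 0.00405. Snrpn, Peg3, Usp29 and Igf2 also had opposite signs with and without UNC0642. H19 had 0.00122 ± 0.00269 (adjusted p = 0.917) and Kcnq1ot1 -0.00242 ± 0.00264 (adjusted p = 0.812).

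The third comparison, UNC0642 against untreated in 4 backgrounds, called 0 of 15 gene bins, 0 of 75 flank bins and 0% of all bins. Unadjusted, 1 of 15 and 4.95% of all bins passed. The bin that passed was Meg3, whose fitted difference was 0.00585 ± 0.00214 (unadjusted p = 0.0207, adjusted p = 0.957). Treated minus untreated was 0.00118 in Setdb1 WT, 0.00509 in Setdb1 KO, 0.0114 in Suv39h WT and 0.00576 in Suv39h DKO, and the fitted value was 0.00401 ± 0.00238 without either Suv39h WT library. This was the only locus with the same sign in all 4 backgrounds, and of the single bins 2 of 15 had it, the other being the first of Igf2r, in which the score was lower each time. Over all bins 12.7% had the same sign in all 4. The neighbours of Meg3 on chromosome 12 had differences of 0.00570 (Rtl1, derived from a retrotransposon, which covers the Meg3 bin and the next) and 0.00555 (Rian, in that next bin), the highest 2 among the 35 cluster neighbours, with a lowest adjusted p of 0.957. The other 3 neighbours there, in bins of their own, had differences of 0.00155 for Dlk1, an inhibitor of adipocyte differentiation, -0.000780 for Mirg, a microRNA host, and 9.87e-05 for the deiodinase gene Dio3. Igf2 was lower with UNC0642 in 3 of 4 backgrounds, and by -0.00826 in Setdb1 WT, the library pair that holds Setdb1 WT + UNC. Peg10 split, at -0.00613 in Setdb1 WT, 0.00288 in Setdb1 KO, 0.00907 in Suv39h WT and -0.00869 in Suv39h DKO. The other fitted differences were 0.00119 for H19, 0.00258 for Peg3, 0.00111 for Usp29, -0.00154 for Kcnq1ot1, -0.00209 for Snrpn and -0.000536 for Plagl1, the last 2 and Usp29 as means over their bins. At Peg3 and Usp29 the widest single difference was that of the Suv39h DKO pair, 0.00918 and 0.00441, and without either library of that pair the fitted values were 0.000386 and 1.04e-05. Over the 5 comparisons and 10 loci, 43 of the 50 fitted differences moved by over 1.5 times when some library was left out, and 25 changed sign.

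The fourth comparison is between the lines, the 4 Suv39h-line libraries against the 4 of the Setdb1 line. It called 1 of the 15 gene bins (6.67%) and 2 of the 75 flank bins (2.67%), beside 8.64% of all bins. With the wild-type backgrounds alone 0 of 15 were called, beside 0.363% of all bins, and 2 of 15 passed unadjusted (13.5% of all bins did), the first bin of Plagl1 (-0.00835 ± 0.00300, adjusted p = 0.273) and the end bin of Snrpn (0.00734 ± 0.00316, adjusted p = 0.348). The bin called over all backgrounds was the same end bin of Snrpn, chr7:59900001-60000000, which comes first along the chromosome because the gene lies on the minus strand, and which holds the end of the gene and 5 snoRNA genes. In the Setdb1 line it scored -0.0229 untreated and -0.0259 with UNC0642, and the knockout -0.0306 and -0.0261. In the Suv39h lines the wild type scored -0.0158 and -0.0182, and the double knockout -0.0141 and -0.0212. The lines did not overlap, and the bin was less deep in B in the Suv39h lines by 0.00902 ± 0.00223 (limma adjusted p = 0.0352). Leaving out single libraries gave adjusted p between 0.0478 and 0.149, and the call was lost without Setdb1 WT, Setdb1 WT + UNC, Setdb1 KO, Suv39h WT, Suv39h WT + UNC or Suv39h DKO, with a difference of 0.00685 to 0.0112 over all 8 fits. The other 2 bins of Snrpn differed by 0.00203 ± 0.00191 and -0.000456 ± 0.00189. Ube3a, on the far side of the snoRNA arrays, differed by 0.00661 in the same direction as a mean over its bins (lowest adjusted p = 0.0529).

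Of all 15 gene bins this was also the 1 in which the 4 scores of one line did not overlap the 4 of the other (6.67%), beside 13.1% of all bins. In the flanks the called bins lay 300 kb before Meg3 and 400 kb before Plagl1. The first, chr12:109200001-109300000, scored -0.00595, -0.00932, -0.0137 and -0.0107 in the Setdb1 line and 0.000793, 0.000656, 0.00112 and -0.00256 in the Suv39h lines, a difference of 0.00992 ± 0.0020 (adjusted p = 0.0169). It has no coding gene, and 69.8% of its bases are soft-masked. The second, chr10:12600001-12700000, lies in Utrn, the utrophin gene, and differed by 0.00912 ± 0.00198 (adjusted p = 0.0222). On leaving out single libraries the first stayed called in 4 of 8 fits and the second in 2 of 8, with differences of 0.00857 to 0.0113 and 0.00793 to 0.0103. Meg3 and Plagl1 themselves were not called, at 0.000874 ± 0.00214 for Meg3 and at -0.00390 ± 0.00212 and 0.00193 ± 0.00201 for Plagl1. The remaining loci were not called either, with 0.00137 at H19, -0.000514 at Igf2, 0.00191 at Kcnq1ot1, -0.0014 at Peg3 and -0.00178 at Peg10, and bin means of -0.000489 at Usp29 and 0.000388 at Igf2r.

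**Figure D4:**
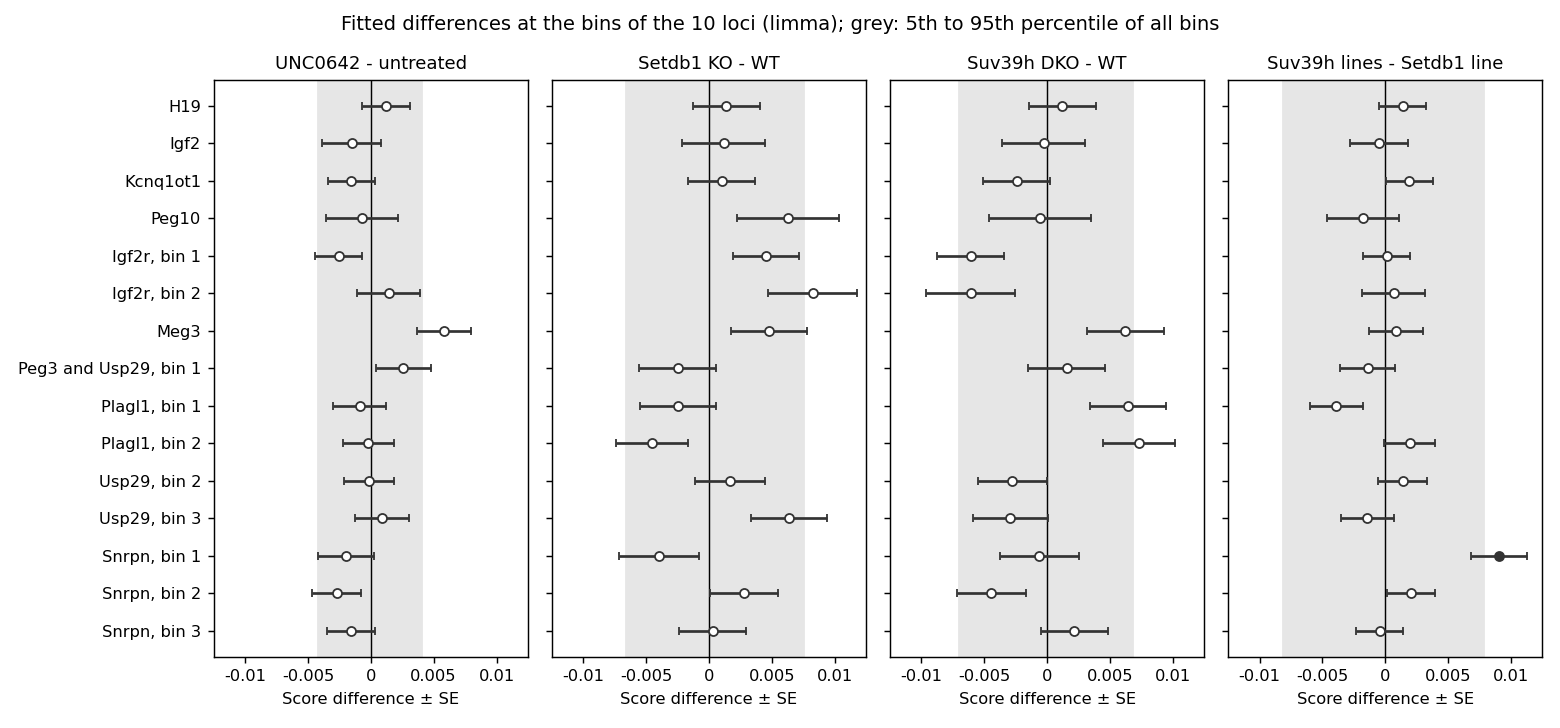
Fitted score differences (limma) with their SE at the bins of the 10 loci, in 4 comparisons, each panel titled with the groups subtracted. Grey spans the 5th to 95th percentile of all bins and a filled point has an adjusted p under 0.05. Bins are numbered along the chromosome, and only the first Snrpn bin along the chromosome, the end bin of the gene, is filled, in the comparison of lines.

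Differences between single libraries have no replicate, so they are given as counts past 0.01 in either direction. Between Setdb1 WT + UNC and Setdb1 WT 0 of 15 gene bins passed, beside 8.13% of all bins, between Setdb1 KO and Setdb1 WT 0, beside 2.28%, and between Setdb1 KO + UNC and Setdb1 WT 0, beside 2.64%. UNC0642 in the Setdb1 knockout also gave 0, beside 1.69%. Setdb1 KO + UNC against Setdb1 WT + UNC gave 3 (20.0%), in Usp29, Peg10 and Igf2r, all upward, beside 12.9%. In the Suv39h lines UNC0642 gave 1 in wild type (Meg3), beside 4.79%, and 0 in the knockout, beside 6.73%. Suv39h DKO against Suv39h WT gave 1 (Plagl1), beside 7.38%, Suv39h DKO + UNC against Suv39h WT + UNC gave 0, beside 6.84%, and Suv39h DKO + UNC against Suv39h WT gave 1 (Meg3), beside 9.8%. Suv39h WT against Setdb1 WT gave 0, beside 12%. Each pair of these shares a library with another.

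The genes that share the clusters with these 10 loci were followed as a list of 35, from Ins2 to Slc22a3. In all 8 libraries 24 were in A and 7 in B, and 4 changed sign (Zim1, Rian, Calcr and Phactr2). The 7 in B were 6 genes of the Prader-Willi and Angelman domain and Tfpi2. Of their 36 bins outside the 10 loci, 0 were called in any of the 5 fitted comparisons, beside 8.64% of all bins for the lines over all backgrounds, 0.363% for the wild-type backgrounds and 0% for the inhibitor and both knockouts. The widest values under SETDB1 loss were 0.00929 at Calcr, the calcitonin receptor gene, and 0.00888 at Pon3, a paraoxonase gene, upward, and -0.00356 at Dlk1 and -0.00284 at Phactr2 downward (lowest adjusted p = 0.433). Calcr was also lowest in Setdb1 WT + UNC, at -0.00507, and 0.00371 in Setdb1 WT, and without Setdb1 WT + UNC its value was 0.00497. Without Setdb1 KO that of Pon3 was 0.00575, and without Setdb1 KO + UNC that of Dlk1 was -9.71e-05. Under SUV39H1/2 loss Mirg (0.00891) and Dlk1 (0.00615), both of the Meg3 cluster, were highest, and Mkrn3 and Peg12, in 1 bin, were lowest (-0.00765; lowest adjusted p of the list 0.386). With UNC0642 Pon2 and Pon3, in 1 bin, were lowest (-0.00706). Between the lines Asb4 (-0.00550) and Calcr (-0.00422) were lowest, and Ube3a and Rian (0.00438) were highest. With wild-type backgrounds alone Mirg (-0.00423) and Asb4 (-0.00304) were lowest and Ube3a (0.00816) and Rian (0.00781) highest. When some library was left out, 19 of the 35 differences changed sign for SUV39H1/2 loss. For SETDB1 loss and for UNC0642 11 each did so. Between the lines 15 changed sign, and with wild-type backgrounds alone 20.

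A list of 27 imprinted genes elsewhere in the genome had 16 in A, 6 in B and 5 of mixed sign. For the lines, 9 of their 38 bins were called (23.7%), 5 higher and 4 lower in the Suv39h lines, beside 8.64% of all bins. Neighbouring bins of 1 gene and genes nested in each other make up part of that count. Peg13, a non-coding RNA inside Trappc9, was in B in 3 of 4 Setdb1-line libraries, at -0.00673, -0.0132 and -0.00863 with Setdb1 WT + UNC at 0.00710. It was positive in the Suv39h lines, at 5.59e-06, 0.00714, 0.00607 and 0.00909. The difference was 0.0109 ± 0.00223 (adjusted p = 0.0175), and Trappc9 had a bin with 0.0121 ± 0.00218 (adjusted p = 0.0110). Grb10, an adaptor that restrains growth signalling, was higher in the Suv39h lines in 1 bin, by 0.00690 ± 0.00185 (adjusted p = 0.0457). Zrsr1, nested in Commd1, was lower by -0.00786 ± 0.00214 (adjusted p = 0.0490), Klf14 by -0.00767 ± 0.00204 (adjusted p = 0.0451), the amino acid transporter gene Slc38a4 by -0.00842 ± 0.00227 (adjusted p = 0.0467) and Herc3 by -0.0112 ± 0.00226 (adjusted p = 0.0166). On leaving out single libraries 0 to 8 of these 9 bins stayed called, with 0 without Setdb1 KO + UNC, Suv39h WT or Suv39h DKO and 8 without Setdb1 WT + UNC. Calls over all bins moved as well. They were 1018 higher and 1052 lower with every library, 220 and 285 without Setdb1 KO + UNC and 268 and 299 without Suv39h WT. They were 180 and 247 without Suv39h DKO and 1377 and 1536 without Setdb1 WT + UNC. The bin of Grb10 was called in 0 of the 8 fits that left out a library. The inhibitor and both knockouts called 0 of the 38. Under SETDB1 loss Peg13 (-0.0111) and Trappc9 (-0.00966) were lowest and Herc3 (0.00486) and Klf14 (0.00454) highest, with a lowest adjusted p of 0.317. Without Setdb1 WT + UNC these 4 values were -0.00661, -0.00585, 0.000107 and 0.00185. Under SUV39H1/2 loss Nespas (0.00844) and Nap1l5 (0.00601) were highest and Zdbf2 (-0.00343) and Cdh15 (-0.00277) lowest. When some library was left out, 24 of the 27 SUV39H1/2 differences moved by more than the factor used for the loci above. Of the 27, 9 changed sign. With UNC0642 Peg13 (0.00713) and Gnas (0.00274) were highest and Klf14 (-0.00297) and Inpp5f (-0.00141) lowest. Between the wild-type backgrounds Slc38a4 (-0.00832) and Commd1 (-0.00710) were lowest and Cdh15 (0.00358) and Peg13 (0.00339) highest. Sign changes on leaving out some library numbered 15 of 27 for UNC0642 and 15 for SETDB1 loss. They numbered 5 between the lines and 13 between the wild-type backgrounds.

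The 11 genes of the imprint machinery were all in A in all 8 libraries. Their mean scores lay between the 74.3rd percentile, for the chromatin protein gene Smchd1, and the 97th, for Uhrf1, which guides maintenance methylation. The 9 imprinted loci in A lay between 61.7 and 76.7, so the ranges overlap, with H19 above Smchd1 and Zfp445 and Igf2 above Smchd1. Of their 14 bins 0 were called in any comparison, beside the same shares of all bins. Dppa3, which protects maternal methylation, had the largest value under SETDB1 loss, 0.00937 (adjusted p = 0.345), and was 0.0299, 0.0254, 0.0373 and 0.0367 over the Setdb1 line. Smchd1 was lowest for both knockouts, at -0.00376 and -0.00931 (lowest adjusted p = 0.626 and 0.357). The next values for SETDB1 loss were 0.00226 at Zfp57 and -0.00179 at Setdb1, and for SUV39H1/2 loss -0.00491 at the methyltransferase partner gene Dnmt3l, 0.00407 at Trim28 and 0.00191 at Zfp57. With UNC0642 they were 0.00253 at Setdb1, 0.00120 at Ctcf, -0.00193 at Zfp445 and -0.00183 at Dnmt1. Between the lines Dnmt1 (-0.0050) and Zfp57 (-0.0040) were lowest and Setdb1 (0.00608) and Smchd1 (0.00322) highest. With wild-type backgrounds alone Trim28 (-0.00466) and Dnmt1 (-0.00464) were lowest and Smchd1 (0.00599) and Setdb1 (0.00512) highest. These values depend on single libraries. For SETDB1 loss 9 of the 11 differences changed sign when some library was left out. For SUV39H1/2 loss 4 of 11 did so, and for UNC0642 5. Between the lines 3 changed sign, and with wild-type backgrounds alone 4.

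**Figure D5:**
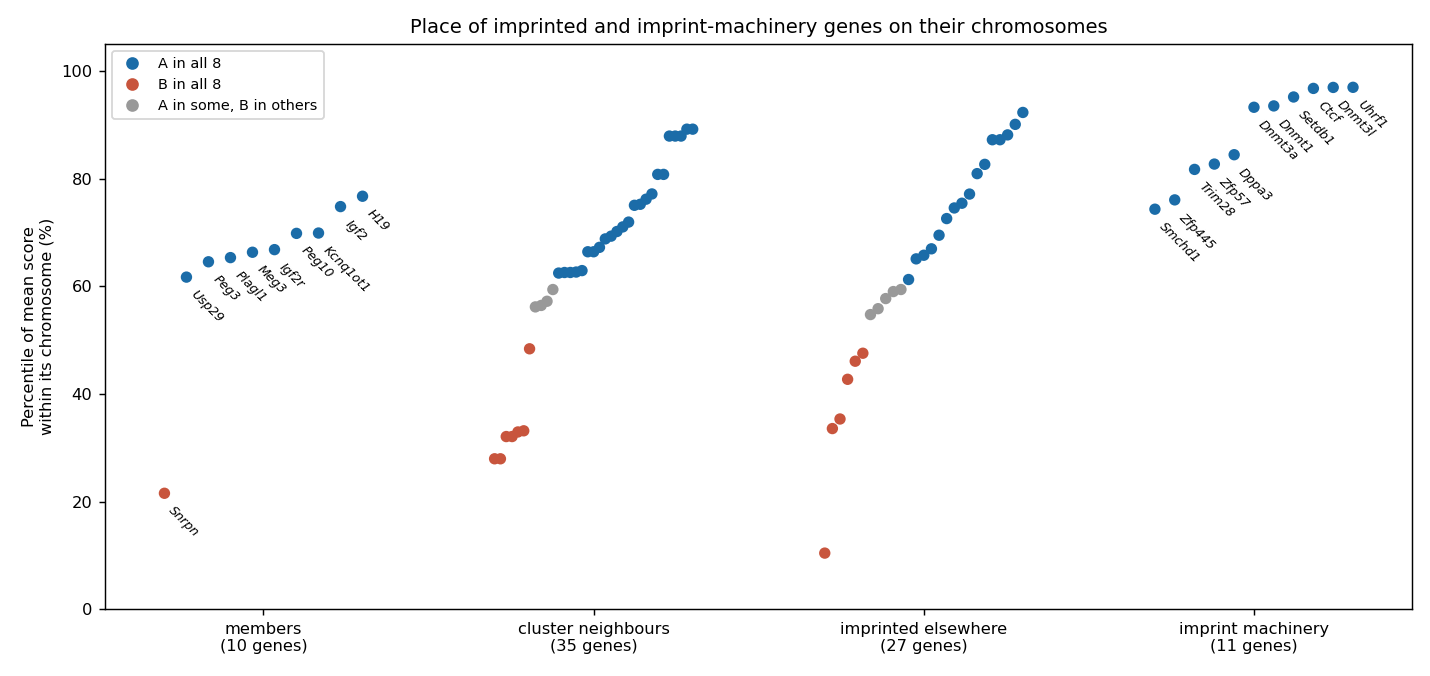
Percentile of each gene's mean score over 8 libraries among the bins of its own chromosome, for the 10 loci and 3 lists, each sorted from low to high. Colours give the sign of the score in the 8 libraries. Among the 10 loci only Snrpn lies low, and all machinery genes lie at 74.3 or above.

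In sequence the loci were not alike. The bins of H19, Meg3 and Igf2 had GC contents at the 98.2nd, 96.1st and 94.6th percentiles of all bins and few repeats, 13.4%, 12.8% and 10.5% of bases. Snrpn had 37.2% GC, at the 10.4th percentile, and 43.1% repeats. Kcnq1ot1 and Peg10 were in A with GC contents near the median, 40.7% each, beside 41.4% over all bins. GATC sites per bin ranged from 206 at Plagl1 to 264 at Usp29. Position also differed. H19, Igf2 and Kcnq1ot1 lay 2.86, 2.77 and 2.14 Mb from the end of chromosome 7, and Peg10 and Peg3 4.75 and 6.70 Mb from the start of theirs.

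For the 3 loci with the widest range over the libraries, the coding genes with the most similar scores on the same chromosome, more than 5 Mb away, were named by the mean absolute difference over 8 libraries. For Meg3, with a range of 0.0148, they were Gm4787 (0.00318) and Serpina3j (0.00461) of 206 bins compared. For Peg10 (range 0.0110) they were Fkbp9 (0.00325) and Bhlhe41 (0.00339) of 401, and for Igf2r (range 0.0108) Scaf8 (0.00362) and Qpct (0.00369) of 300. These differences are about as large as the median SD over libraries, 0.00357.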

How the data were processed

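Hi-C was done on 8 groups of mESCs, each with 1 deposited score file (called a library), grouped by their titles in the labels. The authors cut chromatin with DpnII, aligned reads to mm10 with the 4DN Hi-C pipeline, filtered on mapping quality, and made contact matrices. The deposited values are compartment scores without unit, from Juicer Tools, as the eigenvector of KR-normalised maps within each autosome at 100 kb. The study lists read numbers for each of its Hi-C repeats, but none of the sources ties a file to a single repeat or to several combined. The files themselves carry no depth, so no counting error is given. Each chromosome averages 0 in each library, so only shifts within a chromosome can show. An eigenvector of unit length with its mean removed has this form, with an implied mean of 0.00165 to 0.0112.

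Of 24005 bins, the 23972 scored in all 8 libraries were used. Genes came from GENCODE vM21, and GC, repeats and GATC sites from GRCm38.p6, which shares coordinates with mm10. Differences were fitted with limma 3.58.1 (R 4.3.3) on all bins, with 4 backgrounds and UNC0642 as terms, 3 residual and 7.24 prior degrees of freedom, and Benjamini-Hochberg adjustment over all bins. P-values measure only the spread between these libraries. The fit assumes that UNC0642 acts alike in all backgrounds. The script was tested on simulated data. A gene covering several bins was given its mean. All 10 loci are named in each of the 4 comparisons, and those past an unadjusted p under 0.05 for the wild-type backgrounds alone. Of the 3 lists, the 2 genes with the largest difference in each direction and any called gene are named. Alternatives were other scalings, centrings, thresholds, windows and sets of libraries. The loci and lists were chosen with earlier results of these data known. Python 3.11.15 and pandas 2.3.3 were used for the tables.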

Additional observations from a re-analysis of the deposited data

How the results depend on the processing

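Under every alternative run, each library left out included, the inhibitor, both knockouts and the line in wild-type backgrounds called 0 of the bins of the 10 loci (over all bins, SETDB1 loss gave 343 higher calls and fewer lower ones without Setdb1 WT). For the line over all backgrounds the count of 1 fell to 0 with the implied chromosome mean subtracted once more (adjusted p = 0.0514), where all bins gave 811 higher and 1149 lower calls. With 500-kb means it was 0 of 9 blocks (0.149), while of all 4812 blocks 639 were called higher and 623 lower. On leaving out single libraries it was 0 to 1. Calls over all bins then ran from 180 higher and 247 lower, without Suv39h DKO, to 1377 and 1536, without Setdb1 WT + UNC. Other scalings and the robust fit gave adjusted p of 0.0268 to 0.0460 for the same comparison. Over the 11 pairs of libraries the bins past 0.01 numbered 6 (3.64%, beside 6.83% of all bins) and became 0 at 0.02 (all bins 0.454%), 43 at 0.005 (26.1%, all bins 30.5%), 10 with the implied mean subtracted (6.06%, all bins 7.15%) and 58 with 500 kb on each side (5.86%), which brings in 75 more bins. The non-overlap of the lines at 1 bin became 2 with quantile normalization, for which no share of all bins was computed. The loci in A in all 8 libraries stayed 9 with the implied mean added and with the wider window and were 6 with it subtracted. Of the 50 locus differences, 0 changed sign with root mean square scaling, 1 with quantile normalization, 5 and 3 with the implied mean added or subtracted and 18 with the wider window. Of 40 knockout and line differences 12 changed sign in the untreated libraries alone and 8 in the UNC0642 libraries alone. Leaving out libraries for the single locus differences, the lists and the flank bins was chosen after seeing the data. Replicate numbers pair nothing, with 1 score file a group, but treated and untreated libraries are paired by background. The UNC0642 differences come from that paired fit, and without the background as a block UNC0642 also called 0. With no depth in the files, counting error is unknown.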
